A study of Mus musculus with 11 samples.

Results

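Transcripts of 10 genes were followed in mouse orthotopic pancreatic tumors grown in hosts with or without protein kinase N2 (PKN2). The 10 genes were listed by name, out of 54232 genes in the count table. No measured value entered the rule, but the list was drawn up with earlier results of these data known. Of these, 6 are genes of mature neutrophils (S100a8, S100a9, Csf3r, Cxcr2, Retnlg and Ly6g) and 4 encode chemokines that bind the neutrophil receptor CXCR2 (Cxcl1, Cxcl2, Cxcl3 and Cxcl5). Bulk RNA sequencing covered 6 KO tumors (replicates A to F) and 5 WT tumors (replicates A to E). All hosts were female C57BL/6 littermates, 24 to 28 weeks old at the start, heterozygous for RosaCreERT2, a tamoxifen-activated Cre driven from the ubiquitous Rosa26 locus, and all received the same 5 tamoxifen injections. KO hosts were Pkn2 fl/fl and WT hosts Pkn2 +/+, so that Pkn2 was open to deletion in every host cell that carried the recombinase, blood and marrow cells included, and not only in fibroblasts. Each host then received 1000 TB32048 cells, a pancreatic carcinoma line with intact Pkn2 that came from a female mouse, in DMEM and Matrigel into the pancreas. Pkn2 transcripts could not check the genotype labels, since the carcinoma cells carry the gene.

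Neutrophils are short-lived phagocytes that are made in the bone marrow under granulocyte colony-stimulating factor (G-CSF), whose receptor is encoded by Csf3r. Late in their maturation they gain CXCR2, which lets them leave the marrow and follow CXC chemokines that carry a Glu-Leu-Arg motif before the first cysteines (ELR chemokines). In pancreatic carcinoma these chemokines are made by tumor cells and stroma, and neutrophils drawn in through CXCR2 are studied as suppressors of T cell responses. S100A8 and S100A9 pair to form calprotectin, a major cytosolic protein complex of neutrophils, Retnlg encodes the secreted resistin-like gamma, and Ly6g encodes the surface protein by which mouse neutrophils are usually sorted.

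The sequences in front of these genes are shown first, because 3 ligand genes share a run of 10 letters there that no neutrophil gene has in full. The 4 ligand genes lie in the same stretch of chromosome 5 of GRCm38, in the order Cxcl5 (chr5:90759360-90761624), Cxcl3 (chr5:90786103-90789600), Cxcl1 (chr5:90891241-90893115) and Cxcl2 (chr5:90903871-90905938), all on the plus strand. S100a8 (chr3:90668978-90670035, plus strand) and S100a9 (chr3:90692632-90695721, minus strand) are neighbors on chromosome 3, while Csf3r, Cxcr2, Retnlg and Ly6g lie on chromosomes 4, 1, 16 and 15. RefSeq sequence of GRCm38.p6 upstream of the start site was at hand for 9 of the 10 genes, all but Cxcl5. These start sites can differ from the gene spans above, which are from GENCODE M21. The printed windows of S100a8, Cxcl1 and Cxcl2 end inside those spans. Distances are counted from the RefSeq start. The 250 bases before the start are given 5′ to 3′ on the strand of the gene for 3 ligands and for the S100 pair, with matches to an NF-kB motif, a TATA box and a C/EBP motif in capitals.
Cxcl1 (chr5:90890995-90891244, plus strand): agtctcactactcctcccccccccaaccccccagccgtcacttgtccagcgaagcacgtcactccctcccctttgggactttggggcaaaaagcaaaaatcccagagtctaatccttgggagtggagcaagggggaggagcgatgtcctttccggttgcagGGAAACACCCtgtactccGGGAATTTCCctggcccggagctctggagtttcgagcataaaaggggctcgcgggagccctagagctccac
Cxcl2 (chr5:90903649-90903898, plus strand): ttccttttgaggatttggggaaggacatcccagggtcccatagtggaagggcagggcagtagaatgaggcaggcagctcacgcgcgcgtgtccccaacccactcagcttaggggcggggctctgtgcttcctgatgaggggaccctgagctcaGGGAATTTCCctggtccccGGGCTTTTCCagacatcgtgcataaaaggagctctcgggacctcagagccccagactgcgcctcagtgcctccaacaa
Cxcl3 (chr5:90785851-90786100, plus strand): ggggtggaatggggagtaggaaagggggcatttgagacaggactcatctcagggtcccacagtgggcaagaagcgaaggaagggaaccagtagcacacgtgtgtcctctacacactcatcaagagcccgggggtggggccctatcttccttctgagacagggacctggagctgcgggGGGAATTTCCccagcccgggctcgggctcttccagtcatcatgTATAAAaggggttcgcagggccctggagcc
S100a8 (chr3:90668821-90669070, plus strand): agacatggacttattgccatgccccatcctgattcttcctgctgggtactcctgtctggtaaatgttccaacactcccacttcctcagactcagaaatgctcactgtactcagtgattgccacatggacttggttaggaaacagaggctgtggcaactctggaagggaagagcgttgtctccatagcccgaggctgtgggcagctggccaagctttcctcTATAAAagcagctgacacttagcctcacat
S100a9 (chr3:90695722-90695971, minus strand): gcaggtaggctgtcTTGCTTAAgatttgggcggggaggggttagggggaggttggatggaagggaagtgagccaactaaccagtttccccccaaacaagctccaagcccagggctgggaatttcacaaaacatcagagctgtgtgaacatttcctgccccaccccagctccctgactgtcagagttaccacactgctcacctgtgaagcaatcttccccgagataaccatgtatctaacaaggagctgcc
The NF-kB motif was searched on both strands as GGG, 2 free bases, TT, 1 free base and CC. The same 10 letters, GGGAATTTCC, stood 71 to 62 bases before the start of Cxcl1, 97 to 88 before Cxcl2 and 73 to 64 before Cxcl3. Cxcl1 held a further match on the opposite strand (GGAAACACCC) and Cxcl2 a further match on the same strand (GGGCTTTTCC). None of the 6 neutrophil genes had a match in this window, and 4.11% of 32851 upstream windows of this length in the whole reference did. The S100a9 window held GGGAATTTCA, which differs from the run shared by the ligands in the last letter only and is no match to the motif. A TATA box (TATAAA, both strands) was found at 30 to 25 bases before S100a8 and Cxcl3, and also before Ly6g, against 12.4% of all windows. The C/EBP motif TTGCNNAA matched S100a9 as TTGCTTAA, and also matched the windows of Retnlg and Ly6g, against 9.56% of all windows. An AP-1 motif (TGANTCA) matched no window of the 9 genes and 6.75% of all windows. The PU.1 core GAGGAA (both strands) matched S100a8, Csf3r, Cxcr2 and Ly6g, and 23.3% of all windows. These matches are descriptions of the sequence and not of binding.

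The libraries held between 16294128 counts (WT replicate B) and 31121422 counts (WT replicate E), and levels are given as CPM, in which counts are scaled by library total and TMM factor. On this scale 3 counts came to between 0.0883 and 0.25 CPM, the smallest visible level. WT replicates A, B and C stood apart from the other tumors. Their expression, taken relative to each gene's mean over all tumors, was inversely related to gene length. Spearman coefficients across genes were -0.50, -0.46 and -0.18, against 0.12 to 0.41 in all others. Ribosomal RNA genes took 1.31%, 6.39% and 1.40% of their counts, against 0.241% to 0.765% elsewhere. Fold changes are therefore also given from a fit without these 3 libraries, which rests on WT replicates D and E alone. Epithelial markers, among them the keratins that define a carcinoma, were present in every tumor and summed to 2680 to 5441 CPM in KO and 3083 to 9305 CPM in WT tumors. A bulk count cannot tell fewer cells of a type from less RNA per cell.

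The 6 neutrophil genes leaned towards higher levels in KO tumors and the 4 ligands did not follow. All 6 neutrophil genes had a positive log2 fold change for KO against WT, with a median of 1.5 beside -0.03 over all 16536 genes tested, although Csf3r turned to -0.10 with WT replicates D and E alone. Of the ligands, 1 of 4 had a positive fold change and the median was -0.52. With edgeR and an adjusted p under 0.05, 0 of the 10 genes were called, where 0.0181% of all tested genes were called higher and 0% lower. At an unadjusted p under 0.05, 4 of the 6 neutrophil genes were higher (S100a8, S100a9, Retnlg and Ly6g), where the background was 8.57% of tested genes, and 0 of the 4 ligands passed in either direction, where 15.5% of genes were lower. DESeq2 on the same counts called 2 neutrophil genes higher, S100a9 and Ly6g, and 0 ligands, against 3.21% of genes called higher and 4.85% lower. With WT replicates D and E alone, the log2 fold changes were 3.5 for S100a8, 3.55 for S100a9, 3.04 for Retnlg and 4.03 for Ly6g (edgeR, adjusted p from 0.106 to 0.172). They were 0.27 for Cxcr2, -0.15 for Cxcl1 and -0.51 for Cxcl5 (edgeR, adjusted p from 0.656 to 0.893). The other ligands were at 0.0049 for Cxcl2 (edgeR, adjusted p = 0.997) and 2.03 for Cxcl3 (edgeR, adjusted p = 0.248, unadjusted p = 0.0339). With the ribosomal RNA share of each library in the fit, those of S100a8, S100a9, Retnlg and Ly6g were 3.18, 3.32, 2.53 and 3.89 (edgeR, adjusted p from 0.0916 to 0.196), and those of Csf3r and Cxcr2 were 0.13 and 0.48 (edgeR, adjusted p of 0.945 and 0.8). No member had groups without overlap, a pattern that 1.59% of genes showed with KO higher and 1.98% with KO lower.

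**Figure D1:**
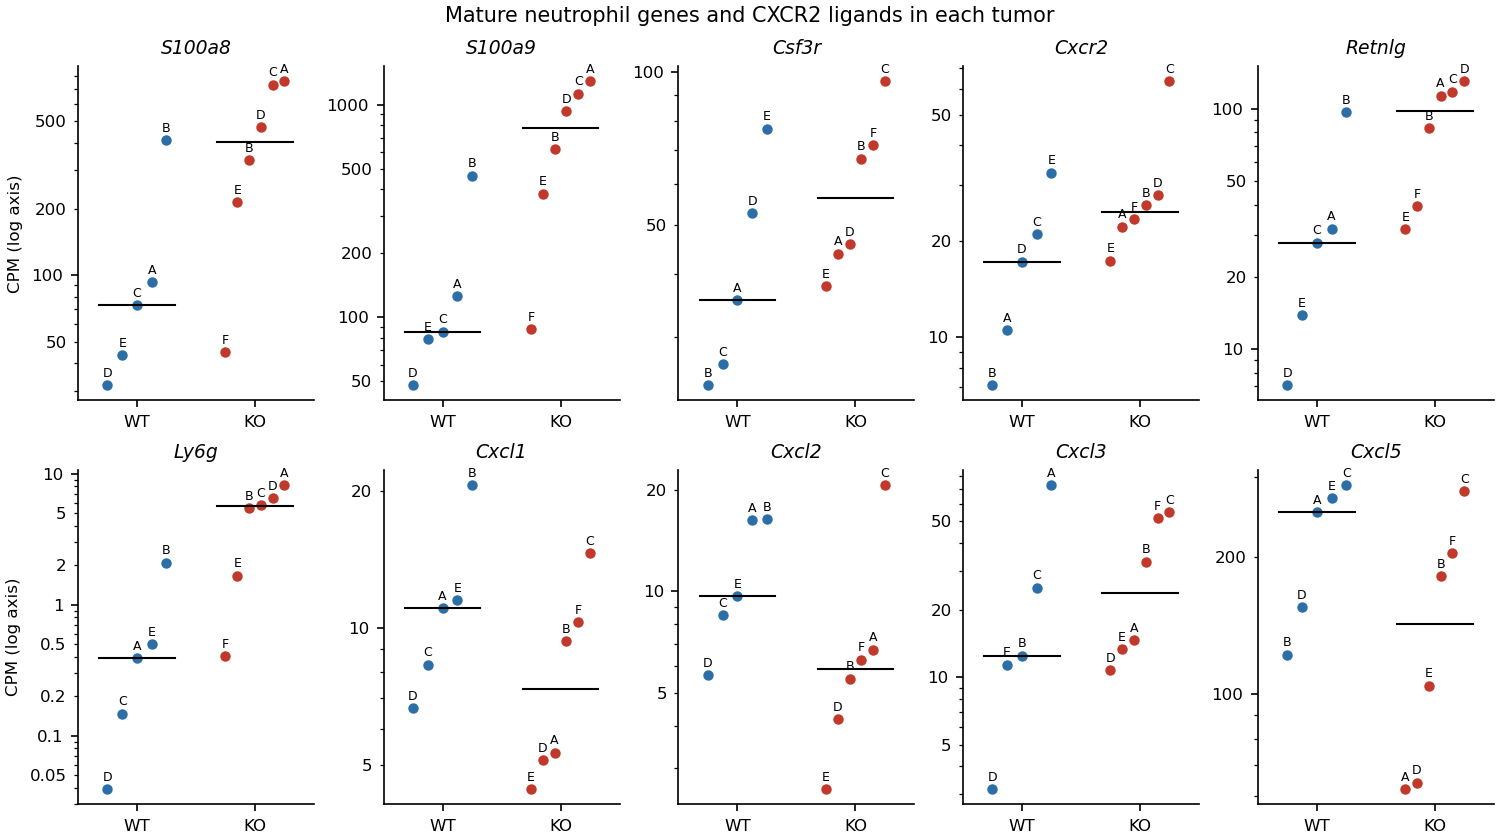
CPM of each of the 10 genes in every tumor, on log axes that differ between panels, with WT tumors in blue, KO tumors in red, replicate letters above the points and a bar at the group median. For S100a8, S100a9, Retnlg and Ly6g, WT replicate B sits among the KO tumors and KO replicate F among or near the WT tumors, and in every panel the groups overlap.

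Per kilobase of exon, S100a9 had the highest mean CPM of the 10 transcripts in both genotypes, and its fold change was the largest after that of Ly6g. In WT tumors its level was 126, 464, 85.8, 48.0 and 78.7 CPM in replicates A to E. In KO tumors it ran from 88.0 CPM in replicate F, through a median of 774, to 1286 CPM in replicate A. KO replicates A, B, C and D lay above every WT tumor, KO replicate E lay below WT replicate B, and KO replicate F was within 3 CPM of WT replicate C. The means were 739 ± 459 CPM (SD, n = 6) and 161 ± 172 CPM (SD, n = 5), and the log2 fold change was 2.20 (SE 0.69, edgeR, adjusted p = 0.107). The exact two-sided permutation test of mean log2(CPM + 1) gave p = 0.0325, where the smallest p that 462 splits allow is 0.00216. Leaving out 1 tumor took this p above 0.05 in 8 of 11 cases (KO replicates A to D and WT replicates A, C, D and E), up to 0.0762. Without WT replicate B the fold change was 3.13 (SE 0.63, edgeR, adjusted p = 0.10). With an offset for gene length it was 2.94 (SE 0.58, edgeR, adjusted p = 0.0471), the only call that this fit made among the 6 neutrophil genes, against 0.399% of genes called higher and 0.145% lower. DESeq2 gave 2.24 (SE 0.60, adjusted p = 0.00900).

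S100a8, its partner in calprotectin, followed the same tumors with a wider overlap. Its level was 93.3, 410, 73.3, 31.7 and 43.6 CPM in WT replicates A to E. KO tumors ranged from 44.8 CPM in replicate F, through a median of 402, to 758 CPM in replicate A. Only KO replicates A, C and D exceeded WT replicate B, and KO replicate F lay between WT replicates E and C. The log2 fold change was 1.71 (SE 0.75, edgeR, adjusted p = 0.187, unadjusted p = 0.0394), with an exact permutation p of 0.0649. Without WT replicate B it became 2.82 (SE 0.67, edgeR, adjusted p = 0.12), and the permutation p 0.0286. The permutation p was 0.0238 without KO replicate F. The ratio of S100a9 to S100a8 counts ran from 1.54 to 1.97 in KO tumors and from 1.13 to 1.81 in WT tumors. An exact permutation test of the log2 ratio gave p = 0.0195, not adjusted for the other ratios examined. WT replicate D (1.51) lay just under the lowest KO tumor, and WT replicate E (1.81) lay among the KO tumors. The 3 lowest ratios (1.13, 1.17 and 1.35) belonged to WT replicates B, C and A, the libraries that stood apart in ribosomal RNA and gene length, and the part of library quality in this ratio was not tested.

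Retnlg, a granulocyte-secreted member of the resistin family, was present at 31.8, 97.2, 27.7, 7.08 and 13.9 CPM in WT replicates A to E. In KO tumors it ranged from 31.5 CPM (replicate E) through a median of 98.5 to 130 CPM (replicate D). WT replicate B again lay among the KO tumors, above 3 of them, while the other 4 WT tumors lay at 31.8 CPM or below, next to or under the lowest KO tumor. Its log2 fold change was 1.28 (SE 0.59, edgeR, adjusted p = 0.205), with an exact permutation p of 0.0476, and without WT replicate B it was 2.1 (SE 0.51, edgeR, adjusted p = 0.126). The permutation p was above 0.05 in 8 of the 11 fits that left out 1 tumor, those without KO replicates A to D or WT replicates A, C, D or E, and reached 0.0794.

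Ly6g had the largest fold change of the 10 genes at the lowest level. It reached 0.39, 2.08, 0.147, 0.0391 and 0.501 CPM in WT replicates A to E, and the values of replicates C and D rest on 3 counts and 1 count. KO tumors ranged from 0.403 CPM in replicate F, through a median of 5.62, to 8.15 CPM in replicate A. KO replicates A to D exceeded every WT tumor, while KO replicates E and F lay below WT replicate B. The log2 fold change was 2.99 (SE 0.88, edgeR, adjusted p = 0.0991), the only one of the 10 with an adjusted p under 0.1, a level that 1.96% of genes reached with KO higher and 3.33% with KO lower. DESeq2 gave 2.98 (SE 0.75, adjusted p = 0.00495), and the exact permutation p was 0.0238, or 0.0524 without WT replicate C and 0.0571 without WT replicate D. The fold change without WT replicate B was 4.06 (SE 0.86, edgeR, adjusted p = 0.101).

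The receptor genes Csf3r and Cxcr2 differed less between genotypes than the other neutrophil genes and were high in other tumors. Csf3r was present at 35.5, 24.2, 26.6, 52.7 and 77.2 CPM in WT replicates A to E and at 37.9 (replicate E), a median of 56.5 and 95.6 CPM (replicate C) in KO tumors. KO replicate F, which was the lowest KO tumor for S100a8, S100a9 and Ly6g, held the second highest KO level of Csf3r (71.7 CPM), and WT replicate B, which was the highest WT tumor for those genes, held the lowest (24.2 CPM). The log2 fold change was 0.48 (SE 0.33, edgeR, adjusted p = 0.383, exact permutation p = 0.171). It reached 0.80 (SE 0.30, edgeR, adjusted p = 0.0966) without WT replicate E, with a permutation p of 0.0476, and -0.10 with WT replicates D and E alone.

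Cxcr2, the receptor for all 4 ligands described here, was present at 10.5, 7.08, 21.1, 17.3 and 32.8 CPM in WT replicates A to E. KO tumors ranged from 17.4 CPM (replicate E) through a median of 24.8 to 63.5 CPM (replicate C). KO replicate C alone exceeded WT replicate E, and 3 WT tumors lay below every KO tumor. The log2 fold change was 0.75 (SE 0.41, edgeR, adjusted p = 0.268, exact permutation p = 0.115). It was 0.39 (SE 0.34, edgeR, adjusted p = 0.528) without KO replicate C and 1.10 (SE 0.40, edgeR, adjusted p = 0.0852) without WT replicate E, where the permutation p was 0.0190.

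Relative to the receptors, the S100 transcripts varied widely among tumors of the same genotype. The ratio of S100a9 to Cxcr2 counts ran from 3.74 (replicate F) to 57.8 (replicate A) in KO tumors and from 2.40 (replicate E) to 65.6 (replicate B) in WT tumors. The median ratio was 22.9 in KO and 4.07 in WT tumors (exact permutation test of the log2 ratio, p = 0.182). The groups overlapped, since the highest ratio of all belonged to WT replicate B and KO replicate F sat below WT replicates A and C. WT replicate B had the largest ribosomal RNA share (6.39%), and S100a9 and Cxcr2 differ in exon length (522 and 3048 bases). The part of library quality in this ratio was not tested. The ratio of Cxcr2 to Csf3r was tighter, from 0.328 to 0.664 in KO tumors and from 0.293 to 0.793 in WT tumors. Per kilobase of exon, S100a9 reached a mean of 1415 CPM in KO and 307 CPM in WT tumors, S100a8 613 and 188, Retnlg 145 and 59.9, Csf3r 16.7 and 12.0, Cxcr2 9.87 and 5.83, and Ly6g 4.95 and 0.671.

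The ligands, which in other settings are induced by interleukin-1, tumor necrosis factor and NF-kB, were dominated by Cxcl5. It was present at 251, 122, 287, 155 and 269 CPM in WT replicates A to E. KO tumors ranged from 62.0 CPM (replicate A) through a median of 143 to 279 CPM (replicate C). KO replicates A, D and E lay below every WT tumor, and no KO tumor exceeded the highest WT tumor. The means were 149 ± 86.8 CPM (SD, n = 6) and 217 ± 73.5 CPM (SD, n = 5). On the log2 scale KO differed from WT by -0.54 (SE 0.39, edgeR, adjusted p = 0.408, exact permutation p = 0.173). Cxcl5 made up 69.9% to 83.7% of the summed CPM of the 4 ligands in KO tumors and 71.2% to 91.0% in WT tumors. Per kilobase of exon its mean was 80.0 CPM in KO and 116 CPM in WT tumors, above Cxcl3 (8.50 and 7.13), Cxcl1 (4.36 and 6.20) and Cxcl2 (3.70 and 5.45).

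Cxcl1, the mouse counterpart of the human GRO chemokines, was present at 11, 20.6, 8.29, 6.65 and 11.5 CPM in WT replicates A to E and at 4.42 (replicate E), a median of 7.33 and 14.6 CPM (replicate C) in KO tumors. The 3 lowest KO tumors (A, D and E) lay below every WT tumor, and only WT replicate B exceeded KO replicate C. The log2 fold change was -0.50 (SE 0.36, edgeR, adjusted p = 0.411, exact permutation p = 0.223). It was -0.20 (SE 0.34, edgeR, adjusted p = 0.807) without WT replicate B and -0.76 (SE 0.35, edgeR, adjusted p = 0.244) without KO replicate C.

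Cxcl2, also known as MIP-2, was present at 16.2, 16.3, 8.49, 5.63 and 9.66 CPM in WT replicates A to E. In KO tumors the lowest value was 2.60 CPM (replicate E), the median 5.89 and the highest 20.6 CPM (replicate C), which was also the highest of all 11 tumors. The other 5 KO tumors stayed at or below 6.72 CPM, as did only replicate D of the WT tumors. The log2 fold change was -0.55 (SE 0.47, edgeR, adjusted p = 0.487, exact permutation p = 0.175). Without KO replicate C it was -1.16 (SE 0.36, edgeR, adjusted p = 0.153) and the permutation p 0.0238, whereas with WT replicates D and E alone it was 0.0049 (SE 0.68, edgeR, adjusted p = 0.997).

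Cxcl3 showed no stable direction. Its level was 72.5, 12.5, 25.2, 3.17 and 11.4 CPM in WT replicates A to E, and the KO tumors spanned 10.8 (replicate D), a median of 23.8 and 55.0 CPM (replicate C), inside the WT range. The log2 fold change was 0.25 (SE 0.67, edgeR, adjusted p = 0.844, exact permutation p = 0.455), and it turned to -0.036 without KO replicate C and -0.030 without WT replicate D. It was 1.19 without WT replicate A and 2.03 (SE 0.81, edgeR, adjusted p = 0.248) with WT replicates D and E alone. Of the 50-base stretches of its transcripts, 4.29% also occurred in transcripts of other genes, mostly Cxcl2, and 5.84% of those of Cxcl2 occurred in Cxcl3. Reads from these stretches could have been dropped, because only uniquely aligned reads were counted. S100a8, S100a9, Retnlg and Cxcl1 shared none, while Csf3r shared 10.75% and Cxcr2 6.68%.

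**Figure D2:**
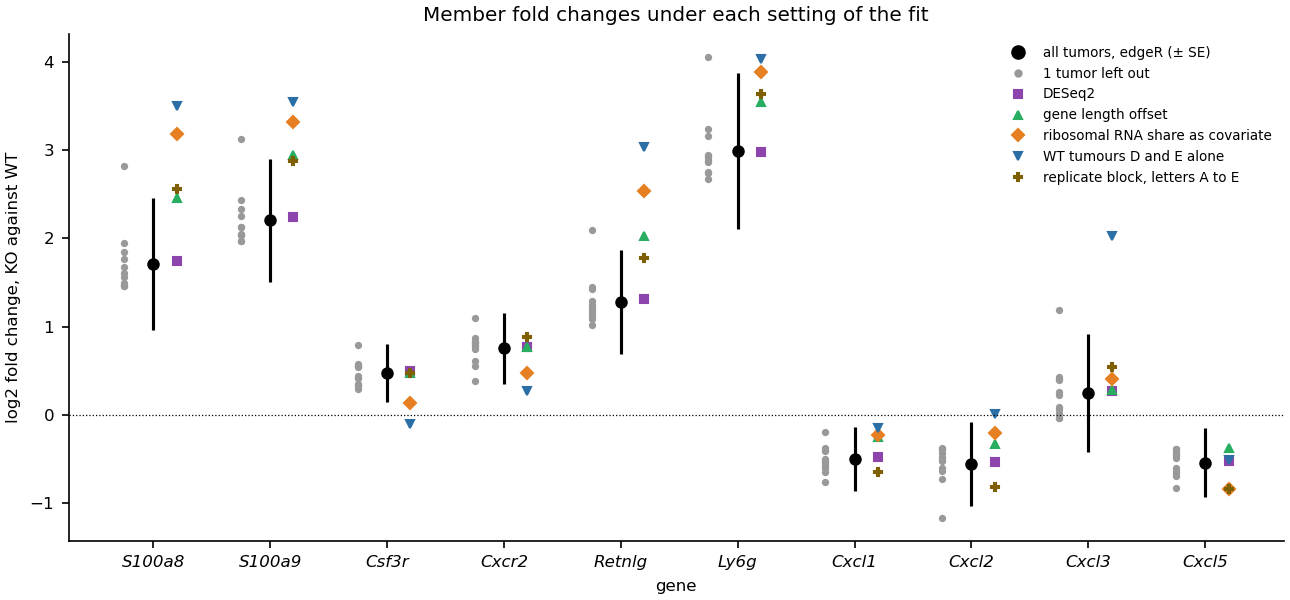
Log2 fold change of each gene for KO against WT in the edgeR fit on all tumors (black, with standard error), with 1 tumor left out (gray) and under 5 further settings. S100a8, S100a9, Retnlg and Ly6g stay between 1.02 and 4.06 in all settings, whereas Csf3r, Cxcl2 and Cxcl3 cross 0 in at least 1 of them.

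To ask whether the receptor-bearing cells and their ligands varied together, levels of the 10 genes were correlated across tumors as log2(CPM + 1), over 45 pairs. The neutrophil genes fell into a pair of separate sets. S100a8 and S100a9 were nearly collinear (Pearson r = 0.987, permutation p = 1e-05, the smallest that 100000 permutations give, adjusted 0.000225, and Spearman rho = 0.982, permutation p = 1e-05, adjusted 0.00045), and r was 0.98 without the 2 tumors farthest from the median. S100a9 followed Ly6g (r = 0.971, rho = 0.927) and Retnlg (r = 0.909, rho = 0.918) in the same way, each with an adjusted permutation p of at most 0.00285, and r stayed at 0.973 and 0.881 without the 2 farthest tumors. Csf3r and Cxcr2 followed each other (r = 0.807, permutation p = 0.00195, adjusted 0.011, and rho = 0.818, permutation p = 0.00351, adjusted 0.0197), although r dropped to 0.573 without the 2 farthest tumors, so that this relation rested partly on them. Across these sets the relation was weak over all tumors, from r = -0.05 for S100a8 and Csf3r to 0.363 for Cxcr2 and Ly6g, with 0.255 for S100a9 and Cxcr2. In WT tumors alone every such r was negative, from -0.415 (Csf3r and Ly6g) to -0.805 (S100a8 and Cxcr2). In KO tumors alone r ran from -0.12 (S100a9 and Csf3r) to 0.582 (Cxcr2 and Retnlg). The difference between the genotypes was not tested. The sets also differ in length. S100a9, Retnlg, S100a8 and Ly6g have 522, 593, 694 and 942 exon bases, and Cxcr2 and Csf3r 3048 and 3609. The libraries differed in their relation to gene length, and the correlations carried no adjustment for it. The part of length in this split was not tested.

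Among the ligands all 6 pairs had a positive r, from 0.389 to 0.852. Only Cxcl1 and Cxcl2 passed adjustment (r = 0.852, permutation p = 0.00094, adjusted 0.00604, and rho = 0.864, permutation p = 0.0011, adjusted 0.00759), with r = 0.775 without the 2 farthest tumors. Between ligands and neutrophil genes, 14 of 24 pairs had a positive r, with a range from -0.58 to 0.368, a median of 0.04 and none past adjustment. Cxcl5, the most abundant ligand, had r = -0.57 with S100a9 (permutation p = 0.0748, adjusted 0.306) and rho = -0.45 (permutation p = 0.174, adjusted 0.561).

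Within the 6 KO tumors the picture differed for the receptors. Csf3r and Cxcl1 varied together across KO tumors (r = 0.997, exact permutation p = 0.00278, and rho = 0.943, exact permutation p = 0.0167, not adjusted), while over all 11 tumors r was 0.07 and in the 5 WT tumors -0.38. In KO tumors the r of Csf3r was also 0.939 with Cxcl3 and 0.887 with Cxcl5, and that of Cxcr2 with Cxcl2 0.916. KO replicate C was the highest KO tumor for Csf3r, Cxcr2 and all 4 ligands, and with 6 tumors these values rest heavily on it and on replicates B and F, the next 2 for Csf3r and Cxcl1. The S100 genes had no such relation in KO tumors, with r from -0.39 to 0.345 against the 4 ligands. In the 5 WT tumors the r of S100a9 was 0.945 with Cxcl1, 0.829 with Cxcl2, 0.281 with Cxcl3 and -0.51 with Cxcl5. That of S100a8 was 0.888, 0.799, 0.308 and -0.51 in the same order. WT replicate B was the highest WT tumor for S100a8, S100a9, Cxcl1 and Cxcl2. The difference between the genotypes in these correlations was not tested.

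**Figure D3:**
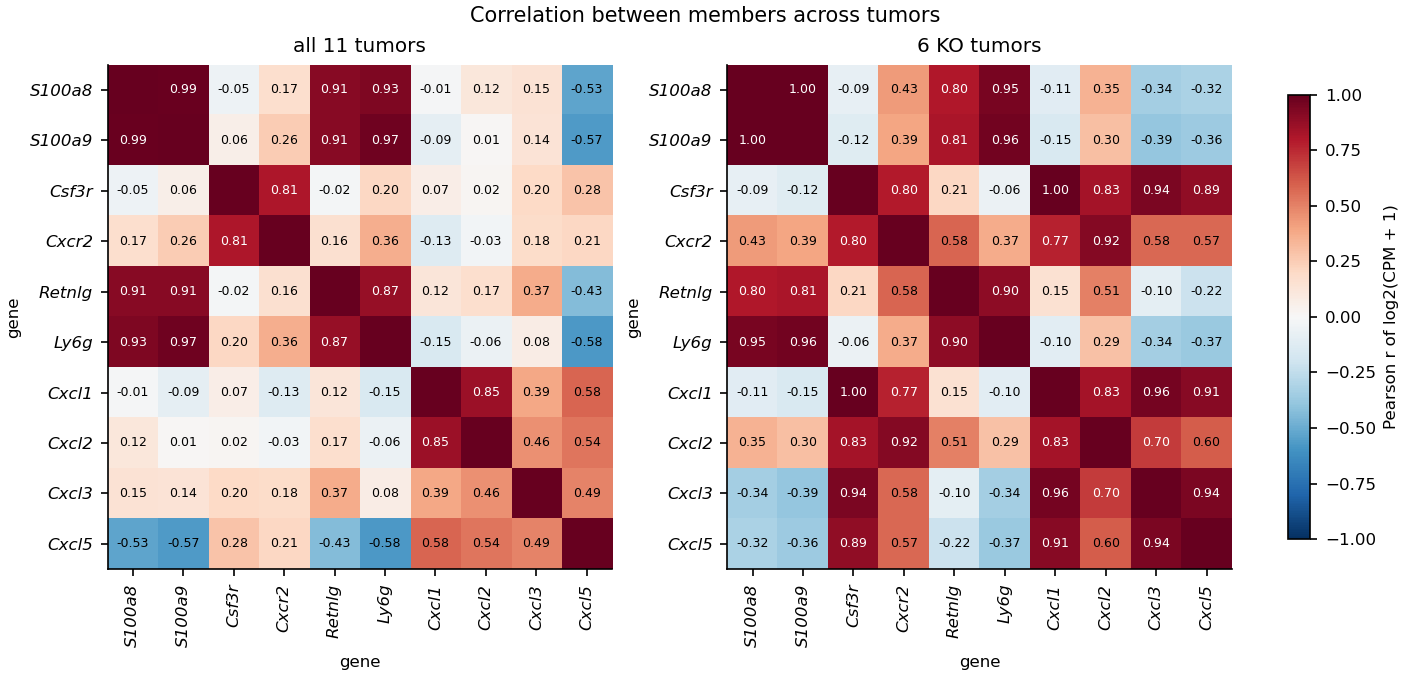
Pearson r of log2(CPM + 1) between the 10 genes over all 11 tumors (left) and over the 6 KO tumors (right), from blue (-1) to red (1). S100a8, S100a9, Retnlg and Ly6g form a block in both panels, and Csf3r joins the ligands in the KO panel only, where its r with Cxcl1 is 0.997.

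**Figure D4:**
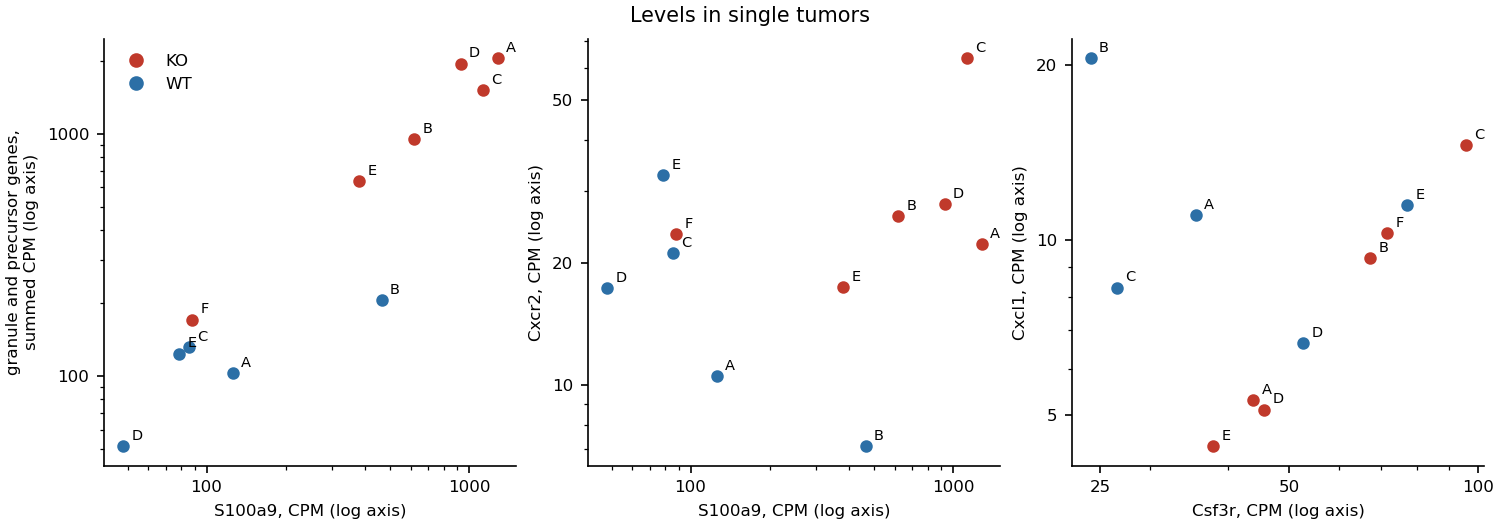
CPM of single tumors on log axes, with KO tumors in red, WT tumors in blue and replicate letters beside the points. S100a9 rises with the summed granule and precursor genes (left), shows little relation to Cxcr2 (middle), and Csf3r and Cxcl1 line up in KO tumors but not in WT tumors (right).

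Genes elsewhere in the table whose pattern over the 11 tumors was most like the mean z score of the 6 neutrophil genes were 9830107B12Rik (r = 0.965), Trarg1 (0.956), Chil1 (0.954), Padi4 (0.954) and Mmp8 (0.952). Padi4 encodes the histone-citrullinating enzyme used in neutrophil extracellular traps, and Mmp8 the neutrophil collagenase. For the mean z score of the 4 ligands they were 4833407H14Rik (r = 0.936), Il1rn (0.932), Cdc45 (0.929), Gm33104 (0.914) and Tnfrsf4 (0.904). Il1rn, the interleukin-1 receptor antagonist, was present at a mean of 66.3 CPM in KO and 111 CPM in WT tumors. These are descriptions over the same 11 libraries.

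Further neutrophil genes were read from the same fit, and none of the genes in any list below was called at an adjusted p under 0.05. Of 25 other genes of mature neutrophils, 13 were higher in KO tumors at an unadjusted p under 0.05 and 0 lower, with a median log2 fold change of 0.94, beside 8.57% of all genes higher and 15.5% lower. Among those with the smallest p were Mmp8 (3.11, edgeR, adjusted p = 0.0607), Padi4 (2.03, adjusted p = 0.0786) and Cd177 (3.28, adjusted p = 0.0786). Mmp8 was higher in every KO tumor than in any WT tumor. Several genes of activated neutrophils in the same list lay near 0, such as Il1r2 (0.19), Trem1 (0.20) and G0s2 (-0.06), which were named after their values were seen.

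Genes of granule proteins and of neutrophil precursors, which are transcribed in the marrow and largely silent in mature blood neutrophils, had a median log2 fold change of 3.99, with a range from 0.94 to 5.84 that took in those of S100a8, S100a9, Retnlg and Ly6g. All 14 were higher at an unadjusted p under 0.05, against 8.57% of all genes, and the summed level was 171 to 2051 CPM in KO and 51.1 to 206 CPM in WT tumors. Lcn2, named after its values were seen, had the highest mean of the 14 in WT tumors (63.7 CPM, beside 180 CPM in KO tumors). The 4 with the smallest p were Itgb2l (4.5, edgeR, adjusted p = 0.0605), Fcnb (5.84, adjusted p = 0.0605), Chil3 (4.01, adjusted p = 0.0607) and the myeloperoxidase gene Mpo (5.59, adjusted p = 0.0663). The sum followed S100a9 over the KO tumors, with 2051 CPM in replicate A and 171 CPM in replicate F, but WT replicate B, which lay among the KO tumors for S100a9, held only 206 CPM. No test was made of the difference between these genes and the 6 mature genes.

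**Figure D5:**
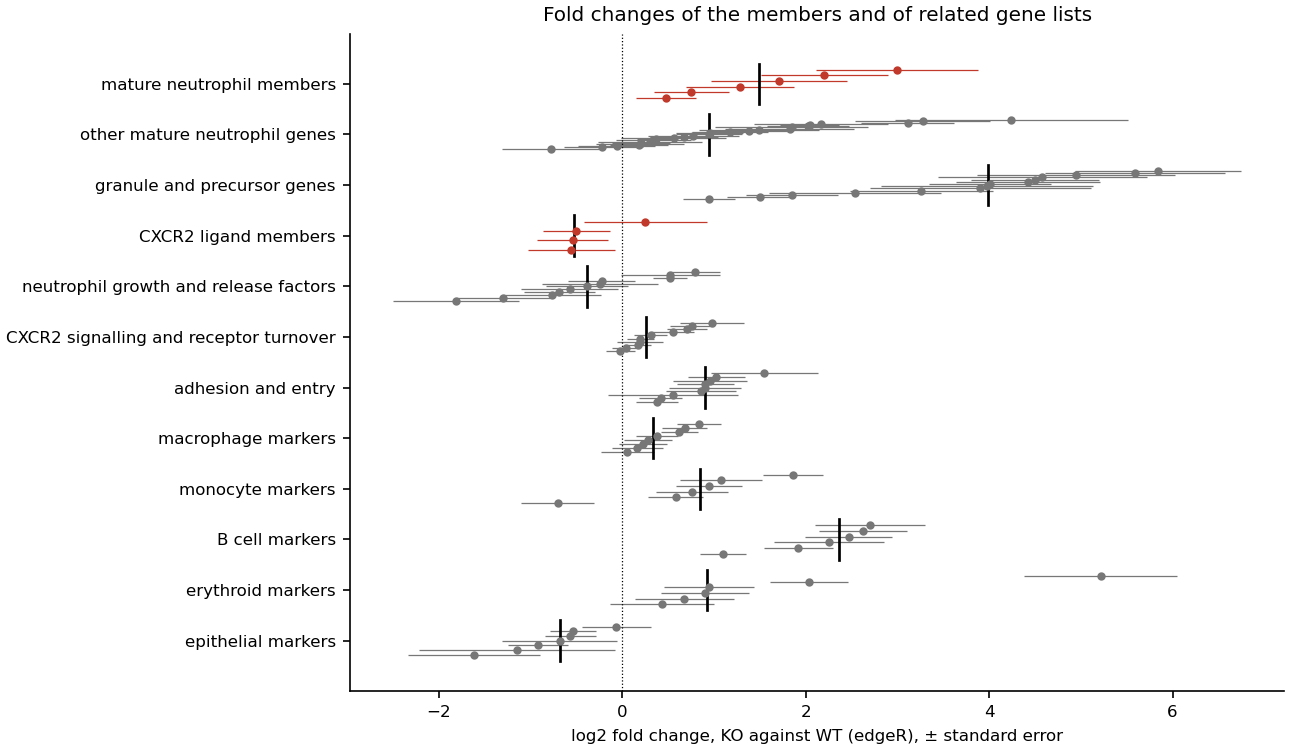
Log2 fold change for KO against WT (edgeR, with standard error) of every tested gene in 12 lists, with the 10 genes described here in red and a bar at each list's median. The granule and precursor genes have the highest median (3.99), and 3 of the 4 ligands lie left of 0.

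Genes that act on the growth, release and retention of neutrophils had fold changes of both signs. Of 11 tested, 2 were higher and 2 lower at an unadjusted p under 0.05, which is near the 8.57% and 15.5% of all genes and no result about these genes. The higher ones were Il17ra, the interleukin-17 receptor chain (0.79, edgeR, adjusted p = 0.12), and Cxcr4, the marrow retention receptor (0.52, adjusted p = 0.128), and the lower ones Csf2, encoding GM-CSF (-1.30, adjusted p = 0.157), and Il23a (-1.81, adjusted p = 0.143). Csf3, which encodes the ligand of Csf3r and was named after its values were seen, was scarce, at 0.07 to 2.12 CPM in KO and 0.352 to 1.44 CPM in WT tumors (log2 fold change -0.25, SE 0.63, edgeR, adjusted p = 0.835). Il17a had too few counts to be tested. Of 10 genes of G-CSF receptor signaling, 3 were higher, among them Lyn (0.50) and Jak1 (0.60), and 0 lower at the same threshold. Of 10 genes of CXCR2 signaling and receptor turnover, 4 were higher (Plcb2 0.71, Pik3cg 0.76, Dock2 0.98 and Vav1 0.55) and 0 lower, each list beside 8.57% of all genes higher and 15.5% lower.

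Adhesion molecules of neutrophil entry were more uniform, with 6 of 9 higher at an unadjusted p under 0.05, 0 lower and a median of 0.90, beside 8.57% of all genes higher. These were led by the integrin subunits Itgb2 (1.02, edgeR, adjusted p = 0.102) and Itgam (0.91, adjusted p = 0.121), which together form Mac-1, by P-selectin (Selp, 1.55, adjusted p = 0.142) and by Itgal (0.96, adjusted p = 0.176). Among 10 regulators of CXC chemokine transcription and mRNA decay, 0 were higher and 1 lower, Nfkbiz (-0.64, edgeR, adjusted p = 0.0956), an inducible cofactor of NF-kB, where 15.5% of all genes were lower, so that this count did not exceed the background. Of the other ELR chemokines and receptors, Cxcl15 (0.68), Ppbp (-0.14) and the decoy receptor Ackr1 (-0.0017) were tested and none passed, and Cxcr1 was too scarce to be tested.

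Some markers of other blood cells were also higher in KO tumors at an unadjusted p under 0.05, where 8.57% of all genes were higher and 15.5% lower, and their part in the results was not tested. All 6 B cell markers passed, and their sum lay at 55.2 CPM or above in every KO tumor and below that in every WT tumor, down to 14.9 CPM. Of 6 erythroid markers tested, 2 were higher (Slc4a1 5.21 and Alas2 2.03), with sums of 57.5 to 144 CPM in KO and 9.27 to 100 CPM in WT tumors. Of 8 macrophage markers, 3 were higher, among them Csf1r (0.83) and Adgre1 (0.68). Their sum was 2094 to 3894 CPM in KO and 1557 to 2794 CPM in WT tumors. Of 6 monocyte markers, 3 were higher, with Ly6c2 first (1.87). The monocyte sum was 562 to 898 CPM in KO and 360 to 1476 CPM in WT tumors. Its median was lower in KO (747 CPM) than in WT tumors (1223 CPM). Most of this sum was Plac8, named after its values were seen, with a log2 fold change of -0.70 (edgeR, adjusted p = 0.294). The other 5 monocyte markers had positive fold changes, from 0.58 to 1.87. KO replicate F, the lowest KO tumor for the S100 genes, had the highest macrophage sum (3894 CPM) and the highest sum of adhesion genes (2421 CPM) of all 11 tumors. Epithelial markers, 3 of 7 of them lower (Krt19 -0.92, Epcam -1.62 and Krt18 -0.54), had the opposite sign.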

How the data were processed

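RNA was extracted from a portion of each of 11 tumors and sequenced from both ends with a directional kit. Per the labels and the study's methods, the authors trimmed reads with Trimmomatic, aligned them in strand-specific mode to GRCm38 (mm10) with HISAT2 (version 2.1.0) and counted uniquely aligned exonic reads per gene with HTSeq (version 0.11.2). The deposited table held raw counts, in whole numbers, for 54232 Ensembl genes. GENCODE M21 gave symbols for 54165 of them. A second deposited table held normalized values, a signal in scaled counts, and served only as an alternative scale for the permutation tests. Groups came from the sample titles. No batch is labeled. A letter shared by a KO and a WT tumor names different animals.

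Counts were tested with the quasi-likelihood test of edgeR 4.0.16 under R 4.3.3, after TMM scaling and filterByExpr, with no covariate and Benjamini-Hochberg adjustment over 16536 genes at 0.05. DESeq2 (version 1.42.0) was an alternative. The script was tested on simulated data. Single genes were also compared with exact two-sided permutation tests of log2(CPM + 1). The 10 genes and all gene lists were chosen with earlier results of these data known. From each list the text names up to 4 genes with the smallest p, and any other name is marked. The 5 genes most like the neutrophil genes or the ligands were ranked by r over tumors. Some list genes are counted but not reported here by name.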

Additional observations from a re-analysis of the deposited data

Results flagged for a closer look

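The level of Cxcr2 in KO replicate C was far from that of the other KO tumors. It reached 6.01 as log2(CPM + 1), or 63.5 CPM, while the next highest KO tumor reached 4.85 and the lowest 4.20. The gap to the nearest tumor took up 0.64 of the whole range of the 6 KO tumors. The KO and the WT tumors were each examined in this way for the 10 genes, 20 groups in all. Chance alone gives about 1 such value among 20 groups, which is the number that was found. The same tumor was the highest KO tumor for Csf3r, Cxcl1, Cxcl2, Cxcl3 and Cxcl5, and without it the log2 fold change of Cxcr2 was 0.39 (SE 0.34, edgeR, adjusted p = 0.528).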

How the results depend on the processing

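Over 19 other settings, edgeR or DESeq2 called 0 of the 4 ligands in each, and 0 of the 6 neutrophil genes in 17. The exceptions were DESeq2 with 2 (S100a9 and Ly6g) and the offset for gene length with 1 (S100a9). Of 190 refitted fold changes of the 10 genes, 183 kept their direction and side of the threshold. The direction turned in 4, namely Csf3r (-0.10) and Cxcl2 (0.0049) with WT replicates D and E alone, and Cxcl3 without KO replicate C (-0.036) or WT replicate D (-0.030). With 1 tumor left out Cxcl3 ranged from -0.036 to 1.19, the latter without WT replicate A. The cause was not tested. Calls over all genes depended far more on the setting, from 3 higher and 0 lower to 595 and 900 with DESeq2, 66 and 24 with the gene length offset, 39 and 6 without a low-count filter, and 4 and 3 with WT replicates D and E alone. Adding the share of ribosomal RNA as a covariate left 0 and 0. Leaving out 1 tumor gave 0 to 608 genes higher and 0 to 1248 lower. The highest counts came without WT replicate E (608 and 1248), WT replicate D (203 and 651) and KO replicate F (30 and 2), and each of the other 8 tumors left 0 and 0. With the letter as a replicate block, 7 genes were higher and 1 lower, and 0 of the 10 genes were called. Tumors of the same letter did not deviate together (correlations from -0.17 to 0.163, 1 of 5 letters matching best with itself). Whether the letters pair the samples cannot be decided from this, because WT replicates A, B and C differed from the other libraries in ribosomal RNA and gene length. Tumors are separate animals, and depth limits Ly6g most, with 1 to 25 counts in WT tumors.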

Other observations

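Marker lists of cell types that were not described above gave mixed values. Of 7 eosinophil, basophil and mast cell markers, 3 were higher in KO tumors at an unadjusted p under 0.05 with edgeR and 0 lower, beside 8.57% and 15.5% of all genes. These were the eosinophil granule genes Epx (log2 fold change 4.68, adjusted p = 0.0786) and Prg2 (3.56, adjusted p = 0.0909) and the mast cell protease gene Cpa3 (1.34, adjusted p = 0.118), whereas the eosinophil surface marker Siglecf had 0.06 (adjusted p = 0.928). The summed level was 16.8 to 93.2 CPM in KO and 14.0 to 118 CPM in WT tumors, and the highest and the lowest sums both belonged to WT tumors, replicates B and D. Most of the sum in WT replicate B was Mcpt8 (101 CPM), named after its values were seen. Its log2 fold change was -0.94 (edgeR, adjusted p = 0.498), while 6 of the 7 markers had a positive one. Of 3 platelet markers tested, 0 were higher and 1 lower against the same background, Pf4 (-1.41, adjusted p = 0.154), and Gp1bb had 0 counts in all 11 tumors.

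None of 7 fibroblast and 5 endothelial markers passed an unadjusted p under 0.05 with edgeR in either direction. Their medians were 0.41 and 0.34, and their sums overlapped widely, at 4344 to 9346 CPM in KO and 2353 to 9268 CPM in WT tumors for fibroblast markers. Of 3 acinar markers tested, 1 was lower, where 15.5% of all genes were, Cela1 (-1.96, adjusted p = 0.0938). The acinar sum exceeded 600 CPM in KO replicate E (609.9 CPM) and WT replicate E (1529 CPM) and lay between 7.24 and 182 CPM in the other tumors.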
